A study of Mus musculus with 6 samples.

Results

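Granulocytes are made in the bone marrow under the direction of a small group of transcription factors, and the mRNA of 10 of them was followed here in neutrophils of mice with and without lung tumors. The factors were taken by name from those known in granulocyte commitment and maturation, and were Cebpa, Cebpb, Cebpd and Cebpe of the C/EBP family, Gfi1, Spi1, Runx1, Irf8, Klf2 and Bcl6. They are 10 of the 38887 gene identifiers in the count table. Neutrophils had been selected with beads against Ly6G, a surface protein of mouse neutrophils, from the marrow of naive mice, of 1-week LL2 mice and of 3-week LL2 mice, with 2 libraries in each group. LL2 is a Lewis lung carcinoma line that carries luciferase, and the cells were injected intravenously, which seeds tumors in the lungs. Naive mice carried no tumor. The labels name no strain, age, sex or genotype for the sequenced mice, and they do not say whether a library came from 1 mouse or from pooled mice, so that p-values measure the spread between these libraries only.

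C/EBPα, encoded by Cebpa, opens the granulocyte program in progenitors, and C/EBPε, encoded by Cebpe, acts later, when promyelocytes become myelocytes and secondary granule proteins are made. C/EBPβ is known for emergency granulopoiesis, the fast production of neutrophils during infection or cytokine stress, and C/EBPδ for acute inflammatory responses. GFI1 is a zinc finger repressor that favors the granulocyte over the monocyte fate. PU.1, the product of Spi1, is the ETS factor of all myeloid cells, RUNX1 is a factor of blood stem cells and their progeny, and IRF8 favors monocytes and dendritic cells over neutrophils. KLF2 is a zinc finger factor tied to quiescence, and BCL6 is a repressor best known from germinal center B cells.

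Promoter sequence from RefSeq was at hand for 7 of the 10 factors. Sequences are shown for Cebpb and Klf2, the 2 factors that rose in 3-week LL2 mice, and for Irf8, the factor that was lower at both times. Each reads 5′ to 3′ on the plus strand of GRCm38.p6 and ends before the annotated transcript. Cebpb lies on chromosome 2, and its sequence covers chr2:167688665-167688914. Klf2 and Irf8 lie on chromosome 8, with chr8:72318812-72319032 shown for Klf2, which stops 29 bases before the RefSeq start, and chr8:120736108-120736357 for Irf8. Capitals mark the core of the cyclic AMP response element in Cebpb (TGACG, or CGTCA on the other strand), a MEF2 motif in Klf2 (CTA and TAG with any 4 bases between them) and a motif of STAT and BCL6 proteins in Irf8 (TTCNNNGAA), where N is any base.
Cebpb: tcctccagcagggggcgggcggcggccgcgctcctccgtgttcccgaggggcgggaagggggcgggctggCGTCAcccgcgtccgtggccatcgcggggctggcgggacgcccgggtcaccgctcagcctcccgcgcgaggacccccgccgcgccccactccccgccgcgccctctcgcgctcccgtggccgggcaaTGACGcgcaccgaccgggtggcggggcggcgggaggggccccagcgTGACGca
Klf2: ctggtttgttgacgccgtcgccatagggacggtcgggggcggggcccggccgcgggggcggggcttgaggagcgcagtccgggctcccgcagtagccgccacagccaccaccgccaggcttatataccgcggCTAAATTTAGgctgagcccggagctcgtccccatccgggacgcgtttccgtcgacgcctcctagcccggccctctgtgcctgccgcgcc
Irf8: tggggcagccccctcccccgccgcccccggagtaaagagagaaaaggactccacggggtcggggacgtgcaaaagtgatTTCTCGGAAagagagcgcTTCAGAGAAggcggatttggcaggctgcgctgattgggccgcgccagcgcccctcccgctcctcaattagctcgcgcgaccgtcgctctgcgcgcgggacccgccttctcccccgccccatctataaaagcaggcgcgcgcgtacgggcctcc
These motifs were chosen with the expression values known, and a match of letters is a description, not a binding site. The cyclic AMP core occurred 3 times before Cebpb, beginning 180, 53 and 7 bases before the start, and 17.7% of the 32817 mouse promoters of the same length held at least 1. The MEF2 motif occurred once, 118 bases before the Klf2 start, and was in 3.2% of promoters. The STAT and BCL6 motif occurred 2 times before Irf8, at 171 and 153 bases, and was in 7.01% of promoters. The first of them shares bases with a match to AAATCA, the core motif of GFI1 (TGATTT on the other strand), which 12.4% of promoters held. The bases shown were rich in G and C, with 81.6% for Cebpb, 71.5% for Klf2 and 67.2% for Irf8.

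The libraries held between 11994158 and 14127919 counts, and 3 counts, taken as the limit of detection, corresponded to between 0.212 and 0.25 CPM, which are counts set relative to each library's size. Such limits take in the error of counting alone, as reads copied by PCR are not independent molecules. The summed level of 12 neutrophil markers lay between 288000 and 352000 CPM in every library, although the transcript of Ly6g itself was read at only 0.491 to 2.13 CPM. Most of that sum was S100a8 and S100a9, with 166000 and 62900 of 288000 CPM in the first naive library. Of the 12, 2 were called higher and 3 lower at 3 weeks against naive mice. Levels of other cell types' markers also moved between groups. The 14 B lineage markers summed to 61.7 to 79.3 CPM in the 4 libraries of naive and 1-week LL2 mice and to 19.7 and 17.3 CPM in 3-week LL2 mice, where all 14 were lower than in naive mice and Rag1 was at 0. The 10 basophil, eosinophil and mast cell markers summed to 39 and 40.8 CPM in naive mice, 87.2 and 95.1 CPM in 1-week LL2 mice and 20.7 and 26.5 CPM in 3-week LL2 mice. The 10 dendritic cell markers summed to between 153 and 178 CPM in the first 4 libraries and to 96.6 and 95.8 CPM in 3-week LL2 mice. Monocyte markers (772 to 1000 CPM), macrophage markers (963 to 1640 CPM) and stem and progenitor cell markers (47.1 to 63.2 CPM) had overlapping ranges in naive and 3-week LL2 mice. Single markers moved all the same, with 1 monocyte marker called higher and 1 lower, and 2 stem and progenitor cell markers lower. Most of the monocyte sum was Ly6c2, with 582 of 772 CPM in the first naive library. F13a1 went from 2.69 and 1.8 CPM in naive mice to 15.5 and 8.14 CPM at 3 weeks, and Cx3cr1 from 8.3 and 9.41 to 2.87 and 3 CPM. Erythroid markers stood at 573 CPM in the second library of 3-week LL2 mice and at 1200 to 1510 CPM elsewhere. T and NK cell markers summed to at most 31.7 CPM, with Trac at 0 in every library. In these bulk samples, fewer cells of a type and less RNA per cell cannot be told apart.

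All 10 factors had enough counts to be tested by the quasi-likelihood test of edgeR, which gave the adjusted p-values below except where DESeq2 is named. In 1-week LL2 mice 1 of the 10 differed from naive mice, Irf8, which was lower. Among all 12259 genes tested, 7.99% were called in that comparison, 4.23% higher and 3.76% lower. No factor was called higher at 1 week by this fit or by DESeq2, and 3 of the 10 had an unadjusted p under 0.05. Cebpb was called higher when edgeR was run without a filter on low counts, as given with its values. In 3-week LL2 mice 6 factors differed from naive mice, with Cebpb and Klf2 higher and Cebpa, Cebpe, Gfi1 and Irf8 lower, beside 21.4% of all genes called, 12.0% higher and 9.42% lower. Between 3-week and 1-week LL2 mice, 6 factors also differed, with Cebpb, Klf2 and Spi1 higher at 3 weeks and Cebpa, Cebpe and Gfi1 lower, beside 22.5% of all genes, 12.9% higher and 9.57% lower. Both comparisons with naive mice use the same naive libraries. The median log2 difference of the 10 factors was 0.00 at 1 week against naive, -0.10 at 3 weeks against naive and 0.04 between the times, beside 0.01, 0.03 and -0.02 for all genes. Groups did not overlap for 5, 7 and 8 factors in these comparisons, beside 53.2%, 59.6% and 63.9% of all genes.

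**Figure D1:**
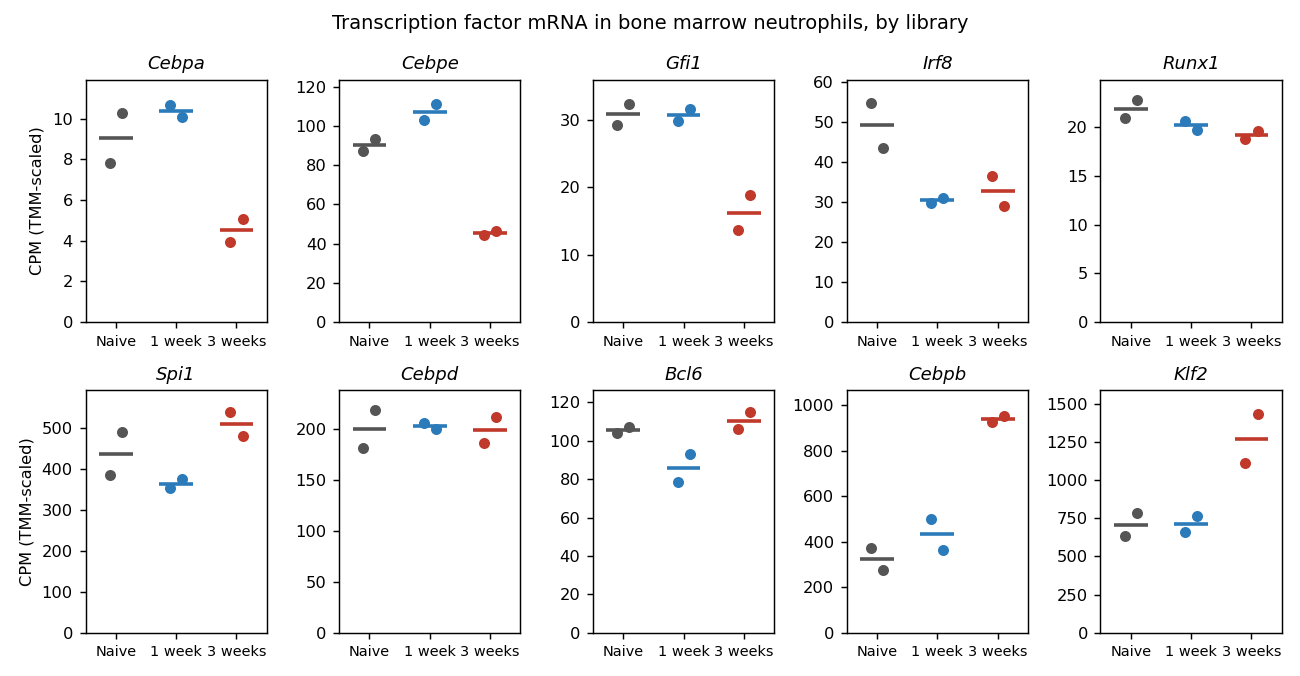
Level of each factor in CPM (vertical axes, each from 0) in the 2 libraries of naive, 1-week and 3-week LL2 mice, with points for libraries and a bar for the mean. Both libraries of 3-week LL2 mice lie below all others for Cebpa, Cebpe and Gfi1 and above all others for Cebpb and Klf2.

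Levels differed widely between the factors when taken per length as RPKM, the CPM divided by the exon length in kilobases. In naive mice Klf2 led with 383 ± 58 RPKM (SD, n = 2, as for all values with ±), followed by Cebpb with 216 ± 44.9, Spi1 with 163 ± 27.3, Cebpe with 72.8 ± 3.35 and Cebpd with 53.3 ± 7.11 RPKM. Bcl6 (15.7 ± 0.276), Gfi1 (9.66 ± 0.678), Irf8 (6.98 ± 1.12), Cebpa (3.44 ± 0.665) and Runx1 (1.82 ± 0.11 RPKM) came after them. The libraries of neighbors in this order did not overlap in naive mice, and the order was the same in 1-week LL2 mice. In 3-week LL2 mice the order of Cebpd (53 ± 4.65 RPKM) and Cebpe (36.6 ± 1.27 RPKM) had turned. Klf2 (690 ± 123) and Cebpb (625 ± 11.3 RPKM) then overlapped, as did Gfi1 (5.09 ± 1.15) with Irf8 (4.67 ± 0.763 RPKM) and Cebpa (1.71 ± 0.3) with Runx1 (1.6 ± 0.0448 RPKM). Ranked among all tested genes per library, Klf2 stood at the 98.9th to 99.4th percentile, Spi1 at the 97.1st to 97.8th and Cebpa at the 40.6th to 60.9th.

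Cebpa and Cebpe, whose products act at an earlier and a later step of the granulocyte program, fell together in 3-week LL2 mice. Cebpa (ENSMUSG00000034957, chr7:35119293-35121928, plus strand, a single exon) was read at 7.83 and 10.3 CPM in naive mice, 10.7 and 10.1 CPM in 1-week LL2 mice and 3.95 and 5.07 CPM in 3-week LL2 mice. The lowest of these rests on 51 counts and the highest on 160, and both 3-week libraries were below the other 4. Its level was 2.01-fold lower than in naive mice (log2 difference -1.0, SE 0.23, adjusted p = 0.00742) and 2.3-fold lower than in 1-week LL2 mice (-1.20, SE 0.226, adjusted p = 0.00203). The call against naive mice was lost without the second naive library (-0.79, adjusted p = 0.073) and without the first 3-week library (-0.83, adjusted p = 0.0585). At 1 week the difference from naive mice was 0.19 on the log2 scale (adjusted p = 0.64).

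Cebpe (ENSMUSG00000052435, chr14:54710360-54712174, minus strand) stood at 87.4 and 93.2 CPM in naive mice, 103 and 111 CPM in 1-week LL2 mice and 44.3 and 46.6 CPM in 3-week LL2 mice. The 3 groups did not overlap, with the 1-week libraries highest and the 3-week libraries lowest. At 3 weeks the level was 1.99-fold lower than in naive mice (log2 difference -0.99, SE 0.119, adjusted p = 8.49e-05) and 2.35-fold lower than at 1 week (-1.23, SE 0.118, adjusted p = 1.37e-05). The 1-week difference from naive mice missed the threshold at 0.24 (95% interval -0.01 to 0.49, adjusted p = 0.228).

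Cebpb took the opposite course. The gene (ENSMUSG00000056501, chr2:167688915-167690418, plus strand, a single exon) was read at 373 and 277 CPM in naive mice, 502 and 363 CPM in 1-week LL2 mice and 928 and 952 CPM in 3-week LL2 mice. The 3-week libraries were far above the other 4 and close to each other, while the naive and 1-week libraries overlapped. Cebpb was 2.89-fold higher at 3 weeks than in naive mice (log2 difference 1.53, SE 0.165, adjusted p = 3.56e-05) and 2.17-fold higher than at 1 week (1.12, SE 0.163, adjusted p = 0.000317). At 1 week the difference from naive mice was 0.41 (95% interval 0.06 to 0.76, unadjusted p = 0.0245, adjusted p = 0.14), and it passed when no filter on low counts was used (adjusted p = 0.0133). Over 312 bases, 20.7% of its exon length, Cebpb lies across from an exon of Tmem189 on the other strand, and whether counting used strand is not given in the sources used here. Tmem189 had 849 and 886 counts in naive mice, 1141 and 1060 at 1 week and 1178 and 1096 at 3 weeks, a log2 difference of 0.33 at 3 weeks (adjusted p = 0.0619).

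Cebpd (ENSMUSG00000071637, chr16:15887286-15891031, plus strand, a single exon) had nearly equal mean levels in the 3 groups. It was read at 181 and 218 CPM in naive mice, 206 and 200 CPM in 1-week LL2 mice and 186 and 211 CPM in 3-week LL2 mice. The naive pair spanned the values of all other libraries. The differences from naive mice were 0.02 at 1 week (95% interval -0.25 to 0.29) and -0.01 at 3 weeks (-0.28 to 0.26), with adjusted p = 0.945 and 0.973. Between the times it was -0.03 (-0.30 to 0.24, adjusted p = 0.891). Their sign changed when single libraries were left out. Spidr overlaps 562 bases, or 15.0%, of its exon from the other strand and was not called in any comparison.

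Because scaling between libraries cancels in a ratio taken inside a library, the balance of the C/EBP factors was also read as ratios of RPKM. Cebpb stood above Cebpa by 83.5 and 47.2 times in naive mice, 82.4 and 63.3 times in 1-week LL2 mice and 412 and 329 times in 3-week LL2 mice. The ratio of Cebpb to Cebpe was 3.52 and 2.46 in naive mice, 4.02 and 2.71 at 1 week and 17.3 and 16.9 at 3 weeks. Both ratios were higher in each 3-week library than in any other. The ratio of Cebpe to Cebpa, in contrast, ranged from 19.2 to 23.8 over all 6 libraries, with the ranges of the 3 groups overlapping. The ratio of Cebpb to Cebpd was 5.14 and 3.16 in naive mice, 6.08 and 4.53 at 1 week and 12.4 and 11.2 at 3 weeks.

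**Figure D2:**
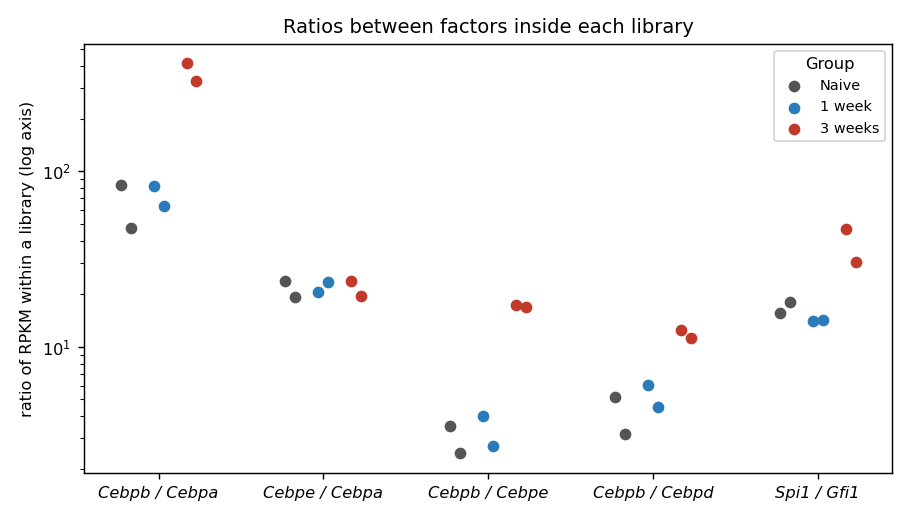
Ratio of the RPKM of pairs of factors in each library (log axis), with points colored by group. Both 3-week libraries lie above the other 4 for every pair except Cebpe to Cebpa, which stays between 19.2 and 23.8.

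Gfi1 (ENSMUSG00000029275, chr5:107716657-107726036, minus strand) had 29.2 and 32.3 CPM in naive mice, 29.8 and 31.6 CPM in 1-week LL2 mice and 13.6 and 18.8 CPM in 3-week LL2 mice. The 1-week values lay inside the naive range, and both 3-week values lay below it. The level at 3 weeks was 1.9-fold lower than in naive mice (log2 difference -0.92, SE 0.165, adjusted p = 0.00151) and 1.89-fold lower than at 1 week (-0.92, SE 0.164, adjusted p = 0.00141). At 1 week the difference from naive mice was 0.00 (95% interval -0.35 to 0.34, adjusted p = 0.993).

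Irf8 was the one factor called at 1 week. The gene (ENSMUSG00000041515, chr8:120736358-120756694, plus strand) was read at 54.9 and 43.7 CPM in naive mice, 29.8 and 31.1 CPM in 1-week LL2 mice and 36.7 and 29.1 CPM in 3-week LL2 mice. Both naive libraries were above all 4 libraries of tumor-bearing mice, and the 1-week and 3-week libraries overlapped. The difference from naive mice was -0.70 at 1 week (SE 0.152, adjusted p = 0.0156), and at 3 weeks the level was 1.5-fold lower (-0.58, SE 0.152, adjusted p = 0.0161). The 1-week call was lost without the first naive library (-0.52, adjusted p = 0.174), without the first 1-week library (-0.67, adjusted p = 0.112) and without the second (-0.73, adjusted p = 0.0823). The 3-week call was lost without the first naive library (-0.44, adjusted p = 0.134) and without the second 3-week library (-0.42, adjusted p = 0.137). Between the times the difference was 0.11 (95% interval -0.22 to 0.45, adjusted p = 0.643), and its sign turned with scaling by library size. Dendritic cells also make IRF8. Their markers summed to 160 and 173 CPM at 1 week, inside the naive range, with 1 of 8 tested markers called lower and 0 higher. At 3 weeks the sums were below that range, with 4 called lower. Siglech, 1 of these markers, was at 6.56 and 4.74 CPM in naive mice and 2.47 and 1.86 CPM at 1 week. Its 3-week values were 4.65 and 3.92 CPM. Xcr1, another, was at 47.8 and 42.7 CPM in naive mice and 52.2 and 52.4 CPM at 1 week. Macrophage markers summed to 1270 and 1060 CPM in naive mice, 990 and 963 CPM at 1 week and 1640 and 976 CPM at 3 weeks. B cells make IRF8 too, and their markers were lower at 3 weeks. The part of all these cells in the Irf8 values was not tested.

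Spi1 (ENSMUSG00000002111, chr2:91082390-91115756, plus strand) stood at 386 and 490 CPM in naive mice, 353 and 376 CPM in 1-week LL2 mice and 539 and 480 CPM in 3-week LL2 mice. The 1-week libraries were the lowest, and the naive and 3-week libraries overlapped. Spi1 was 1.4-fold higher at 3 weeks than at 1 week (log2 difference 0.48, SE 0.13, adjusted p = 0.0174). This call was lost with scaling by library size (0.28, adjusted p = 0.101) and when the first 1-week library (0.41, adjusted p = 0.147), the second 1-week library (0.50, adjusted p = 0.087) or the first 3-week library (0.41, adjusted p = 0.0904) was left out. Against naive mice the difference was -0.26 at 1 week (95% interval -0.54 to 0.02, adjusted p = 0.246) and 0.22 at 3 weeks (-0.06 to 0.50, adjusted p = 0.261). The ratio of Spi1 to Gfi1 was 15.6 and 17.9 in naive mice, 14 and 14.1 at 1 week and 46.8 and 30.2 at 3 weeks, so that both 3-week libraries were above the rest.

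Runx1 (ENSMUSG00000022952, chr16:92601466-92826149, minus strand) varied little, with 20.9 and 22.8 CPM in naive mice, 20.6 and 19.7 CPM in 1-week LL2 mice and 18.8 and 19.6 CPM in 3-week LL2 mice. The naive libraries were the highest by a small margin. The differences from naive mice were -0.12 at 1 week (95% interval -0.43 to 0.19, adjusted p = 0.684) and -0.19 at 3 weeks (-0.50 to 0.12, adjusted p = 0.397). Between 3 weeks and 1 week it was -0.07 (-0.38 to 0.24, adjusted p = 0.764).

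Klf2 had the highest level per length of the 10 factors in every group, although its libraries overlapped with those of Cebpb at 3 weeks. The gene (ENSMUSG00000055148, chr8:72319033-72321656, plus strand) was read at 632 and 784 CPM in naive mice, 661 and 767 CPM in 1-week LL2 mice and 1110 and 1430 CPM in 3-week LL2 mice. The 1-week values lay inside the naive range, and both 3-week values were above it. Klf2 was 1.8-fold higher at 3 weeks than in naive mice (log2 difference 0.85, SE 0.147, adjusted p = 0.00122) and 1.78-fold higher than at 1 week (0.83, SE 0.147, adjusted p = 0.00127). At 1 week the difference from naive mice was 0.01 (95% interval -0.30 to 0.33, adjusted p = 0.974). B and T cells also make KLF2, and their marker sums were lower at 3 weeks. Their part in the Klf2 values was not tested.

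Bcl6 (ENSMUSG00000022508, chr16:23965052-23988852, minus strand) was read at 104 and 107 CPM in naive mice, 78.7 and 93.1 CPM in 1-week LL2 mice and 106 and 115 CPM in 3-week LL2 mice. The 1-week libraries were below all others, and the naive and 3-week libraries overlapped. The difference at 1 week was -0.30 against naive mice (95% interval -0.56 to -0.03, adjusted p = 0.162). Between 3 weeks and 1 week it was 0.36 (0.09 to 0.62), which edgeR did not call (adjusted p = 0.0511) and DESeq2 did (adjusted p = 0.0447). At 3 weeks against naive mice it was 0.06 (-0.20 to 0.33, adjusted p = 0.766) and turned to -0.08 with scaling by library size.

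**Figure D3:**
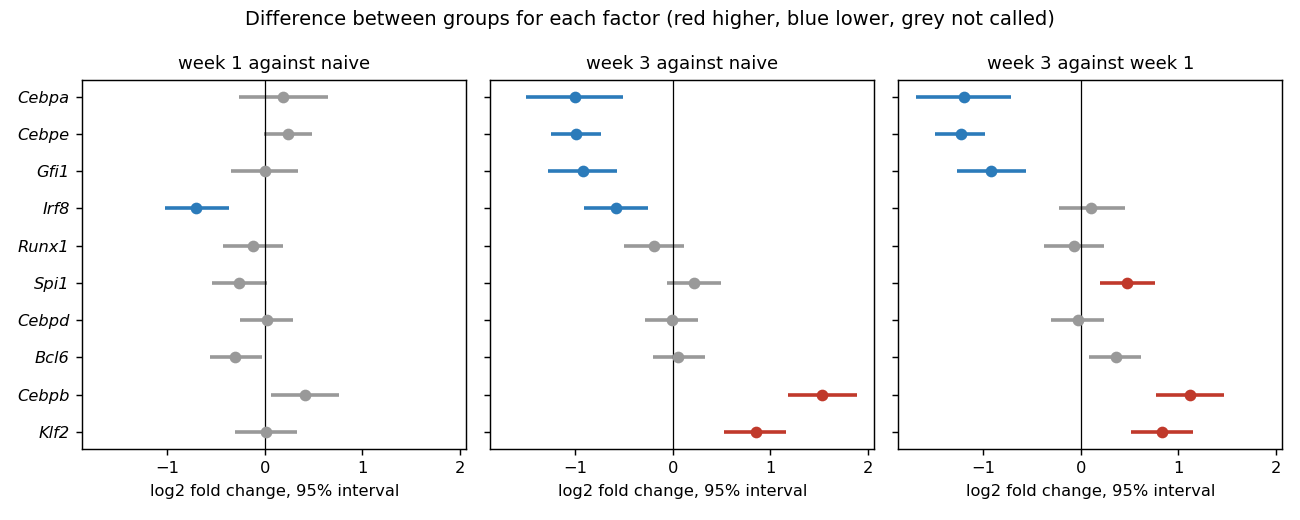
Log2 difference of each factor (horizontal axis) in the 3 comparisons, with points for the estimate, lines for the 95% interval of the edgeR fit, and red for higher, blue for lower and grey for not called. Irf8 alone is colored at 1 week, and Cebpa, Cebpe and Gfi1 lie on the lower side and Cebpb and Klf2 on the higher side in both 3-week panels.

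Scaling mattered for the balance of all calls but for few of the factors. With scaling by library size in place of TMM, the median of all genes moved by 0.06, -0.15 and -0.20 on the log2 scale in the 3 comparisons, and calls split into 890 higher and 1675 lower at 3 weeks against naive mice, in place of 1471 and 1155. At 1 week the split became 575 and 263 in place of 518 and 461, and between the times 856 and 2136 in place of 1586 and 1173. Cebpa, Cebpb, Cebpe, Gfi1 and Klf2 kept their direction and calls at 3 weeks under that scaling.

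Genes tied to the C/EBP proteins, or named after them, were followed as a list of 12. It holds C/EBP relatives, bZIP factors and genes tied to the degradation of C/EBPα or related to such genes, adaptors that lead C/EBPα to degradation among them. Cebpz and Cebpzos are in the list by name only. In 3-week LL2 mice 1 was higher and 2 were lower than in naive mice. Trib1, which encodes such an adaptor, had 1430 and 1330 CPM in naive mice, 1200 and 1090 CPM at 1 week and 833 and 741 CPM at 3 weeks. It was thus lowest in the 3-week libraries, with a log2 difference of -0.81 from naive mice (SE 0.115, adjusted p = 0.000283) and -0.54 from 1-week LL2 mice (adjusted p = 0.00418). Cebpz fell by 0.81 (SE 0.146, adjusted p = 0.00155), and Batf, a bZIP factor, rose by 1.03 from a low level (2.34 to 4.78 CPM, adjusted p = 0.0393), a call that DESeq2 did not make (adjusted p = 0.128). Cebpg, a C/EBP protein without an activation domain, had a difference of 0.22 (adjusted p = 0.385), and Ddit3, a C/EBP-related stress factor, of -0.45 (adjusted p = 0.08). At 1 week edgeR and DESeq2 called 0 of the 12, of which 3 had an unadjusted p under 0.05 and 2 had no adjusted p from DESeq2. The median of the list at 3 weeks was -0.33 beside 0.03 for all genes.

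Of 18 tested corepressors and partners of GFI1, RUNX1 and BCL6, 2 were higher and 3 lower at 3 weeks than in naive mice, while DESeq2 called 0 higher and 2 lower, with 2 higher and 5 lower at an unadjusted p under 0.05 in the edgeR fit. Kdm1a, the histone demethylase recruited by GFI1, was at 11.5 and 11.2 CPM in naive mice, 8.07 and 8.94 CPM at 1 week and 17.4 and 17.7 CPM at 3 weeks. It was therefore highest where Gfi1 was lowest, with a log2 difference of 0.63 from naive mice (SE 0.164, adjusted p = 0.0162) that DESeq2 did not call (adjusted p = 0.0805). Runx3, a relative of Runx1, fell by 0.82 (SE 0.152, adjusted p = 0.00187), while Cbfb, the partner subunit of RUNX proteins, had a difference of 0.22 (adjusted p = 0.229). Ncor1, a corepressor of BCL6 among other factors, fell by 0.45 (adjusted p = 0.0157). Gfi1b, the paralog of Gfi1, stayed between 0.615 and 1.98 CPM.

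Of the 22 other ETS and IRF factors, 8 were lower and 2 higher at 3 weeks than in naive mice, and 2 were lower at 1 week. DESeq2 called 8 lower and 0 higher at 3 weeks, so that the rises of Elf2 (0.75, adjusted p = 0.0388) and Gabpa (0.78, adjusted p = 0.0187) were not called by it (adjusted p = 0.0805 and 0.0757). The median at 3 weeks was -0.28. The 2 at 1 week were Ets2 (log2 difference -1.06, SE 0.152, adjusted p = 0.00175) and Irf2 (-0.68, SE 0.114, adjusted p = 0.00423). Ets2 was read at 302 and 212 CPM in naive mice, 130 and 117 CPM at 1 week and 144 and 135 CPM at 3 weeks, so that, as for Irf8, all tumor-bearing libraries were below both naive ones. Irf7 and Irf9, which act in the interferon response, fell by 0.99 (adjusted p = 0.000568) and 0.75 (adjusted p = 0.000937) at 3 weeks. Spib, an ETS factor of B cells and plasmacytoid dendritic cells, fell by 3.14 (adjusted p = 3.9e-06), beside the lower B lineage and dendritic cell markers. The part of those cells was not tested.

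Of 13 tested KLF and SP factors other than Klf2, 4 were higher at 3 weeks than in naive mice and 1 lower, with a median of -0.04, and 5 were higher and 2 lower than at 1 week, with a median of 0.39. Klf13 had 118 and 125 CPM in naive mice, 105 and 93 CPM at 1 week and 212 and 185 CPM at 3 weeks, and Klf9 had 13.7 and 11.9, 7.6 and 8.94, and 26.7 and 23.5 CPM. Both were highest in the 3-week libraries, with log2 differences from naive mice of 0.71 (SE 0.121, adjusted p = 0.00105) and 0.97 (SE 0.166, adjusted p = 0.00109). Klf1, an erythroid factor, fell by 1.69 (adjusted p = 0.019). At 1 week 3 of the 13 were lower, among them Klf3 (-1.14, adjusted p = 0.00456) and Klf9 (-0.63, adjusted p = 0.0442), which DESeq2 did not call (adjusted p = 0.0874).

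A further 31 tested factors known in neutrophil production or maturation were higher in 12 cases and lower in 3 at 3 weeks against naive mice, with a median of 0.19, and DESeq2 called 11 higher and 5 lower. At 1 week 7 were lower. Id1, an inhibitor of basic helix-loop-helix factors, had 46.4 and 41.3 CPM in naive mice, 41.8 and 38.3 CPM at 1 week and 94.5 and 124 CPM at 3 weeks, a log2 difference of 1.32 from naive mice (SE 0.146, adjusted p = 4.62e-05). Jun, a subunit of AP-1, rose by 1.1 (adjusted p = 0.000449), and Rara, the retinoic acid receptor of granulocyte differentiation, by 0.77 (adjusted p = 0.000688). Myb, a factor of dividing progenitors, was at 46.9 and 43.6 CPM in naive mice, 47.8 and 47.8 CPM at 1 week and 20.7 and 23.4 CPM at 3 weeks (-1.04, SE 0.13, adjusted p = 0.000127). Bach1, a heme-regulated repressor, was at 65 and 60.3 CPM in naive mice, 41.5 and 41.5 CPM at 1 week and 87.7 and 93.5 CPM at 3 weeks. It was lower than naive at 1 week (-0.59, adjusted p = 0.0107), higher than naive at 3 weeks (0.53, adjusted p = 0.00595) and 1.13 higher at 3 weeks than at 1 week (adjusted p = 2.81e-05). Of 24 tested factors of progenitors and other lineages, 9 were lower at 3 weeks than in naive mice, with a median of -0.62, and 0 were higher by edgeR or DESeq2, or at an unadjusted p under 0.05. Pax5 (-2.18, adjusted p = 0.000144) and Bach2 (-1.73, adjusted p = 0.000304), factors of B cells, were among the 9, as was Nr4a1 (-0.85, adjusted p = 0.000357).

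Genes that mark the stages of maturation were set beside the factors. The list called primary granule genes holds 12 genes tied to the promyelocyte stage, not all of which encode granule proteins. It had 9 higher members at 3 weeks against naive mice and a median of 1.47. Mpo, myeloperoxidase, was read at 34.9 and 23.3 CPM in naive mice, 29.1 and 47.7 CPM at 1 week and 119 and 167 CPM at 3 weeks (log2 difference 2.30 from naive mice, SE 0.239, adjusted p = 2.73e-05). Prtn3, proteinase 3, rose by 3.23 (adjusted p = 3.52e-06) and Ctsg, cathepsin G, by 2.91 (adjusted p = 3.58e-05). At 1 week edgeR called 0 of the 12, with 5 at an unadjusted p under 0.05, and DESeq2 called 1, which was lower. Cebpa was thus lower in the same libraries in which 9 of these genes were higher.

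Of 16 secondary and tertiary granule genes, 3 were higher and 5 lower at 3 weeks than in naive mice, and the median of 0.06 turned to -0.08 with scaling by library size. Camp, the cathelicidin of secondary granules, had 17000 and 19900 CPM in naive mice, 21900 and 18800 CPM at 1 week and 8090 and 9930 CPM at 3 weeks (-1.04, SE 0.136, adjusted p = 0.000173). Lyz2, lysozyme, fell by 1.27 (adjusted p = 6.62e-05) and Chil3, a chitinase-like protein, by 0.79 (adjusted p = 0.000453), in the same libraries in which Cebpe was lower. The neutrophil markers Ltf and Ngp were also lower there by DESeq2, with differences of -0.66 and -0.53 (adjusted p = 2.02e-07 and 0.000182). Not every gene of the list fell. By DESeq2, the neutrophil markers Lcn2 and Mmp8 had differences of 0.03 and 0.05 (adjusted p = 0.935 and 0.836). At 1 week Lyz2 had been higher than in naive mice, by 0.63 (adjusted p = 0.02). Anxa1 (1.56, adjusted p = 5.31e-05) and Pglyrp1 (1.04, adjusted p = 0.000265) were higher at 3 weeks, and both were already higher at 1 week, by 0.97 (adjusted p = 0.00568) and 1.61 (adjusted p = 5.53e-05). Of 20 late-stage neutrophil genes, 7 were higher and 1 lower at 3 weeks, with a median of 0.06 that also turned to -0.08 with scaling by library size. Wfdc17, a small secreted protein gene, rose by 4.99 (adjusted p = 1.4e-06), and Jaml, an adhesion protein gene, fell by 2.19 (adjusted p = 5.57e-05). Of 20 S phase and mitosis genes, 11 were lower and 0 higher at 3 weeks by edgeR, and DESeq2 called 9 lower and 0 higher, with 15 lower and 0 higher at an unadjusted p under 0.05. Top2a, the topoisomerase of dividing cells, fell by 1.33 (SE 0.131, adjusted p = 1.57e-05) and Cdk1, the mitotic kinase, by 0.94 (adjusted p = 0.000221).

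**Figure D4:**
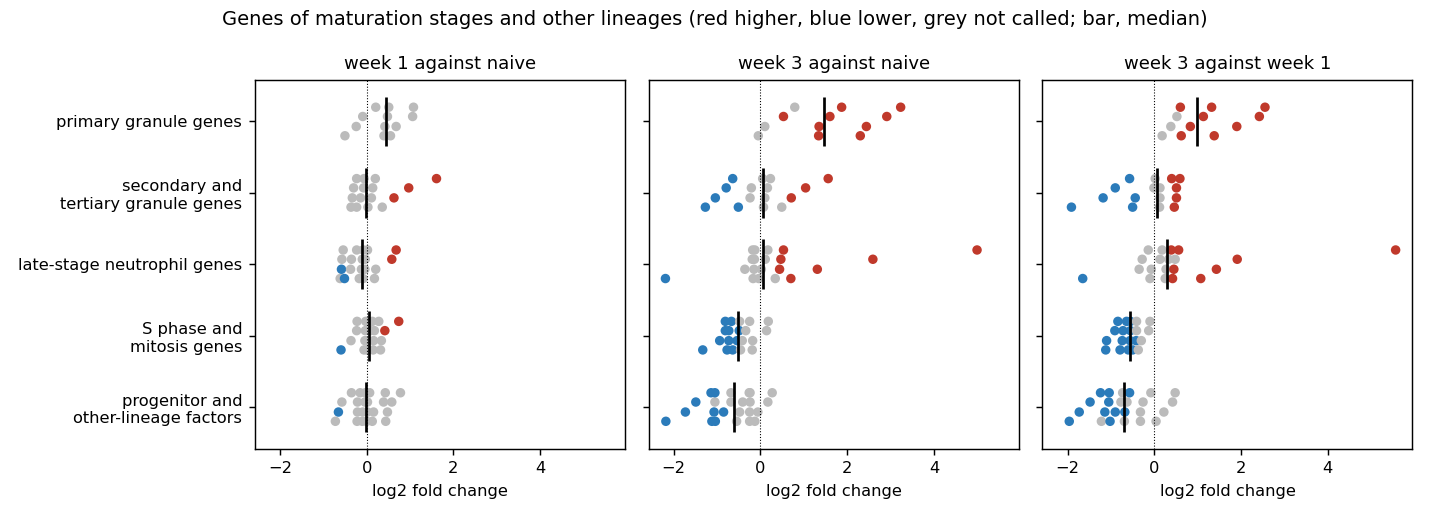
Log2 difference (horizontal axis) of each tested gene of 5 lists in the 3 comparisons, with red for higher, blue for lower, grey for not called and a bar for the median of the list. At 3 weeks against naive mice the medians are 1.47 for primary granule genes, -0.52 for S phase and mitosis genes and -0.62 for progenitor and other-lineage factors.

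Among 120 candidate factors of the lists above, the gene whose log2 CPM was most like that of each factor over the 6 libraries was found by Pearson's r. The values describe these 6 libraries, which share 3 group means and their depth. Cebpa was most like Irf7 (r = 0.999), Cebpe most like Nr4a1 (0.984) and Gfi1 most like Lyl1, a progenitor factor (0.994). Spi1 was most like Jund (0.988), Irf8 most like Ets2 (0.961), Klf2 most like Cux1 (0.958), Cebpb most like Cbfb (0.943) and Runx1 most like Elk3 (0.939). The lowest of these values were those of Bcl6 with Hdac3 (0.884) and of Cebpd with Meis1 (0.765).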

How the data were processed

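RNA of Ly6G-selected bone marrow neutrophils was sequenced in 6 libraries, 2 each from naive, 1-week LL2 and 3-week LL2 mice, grouped by the labels. The authors deposited expected counts per gene from RSEM, rounded to whole numbers and not scaled between libraries. The submitters' notes name RSEM 1.2.31, Bowtie2, DESeq2 and the mm10 build, and whether counting used strand is not given in the sources used here. Purity was assessed before sequencing by the authors.

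Symbols and exon lengths came from GENCODE M21 on GRCm38, the assembly called mm10, which matched 37570 of 38887 identifiers. Identifiers without a match held between 0.319% and 0.399% of counts. Counts were filtered with filterByExpr, scaled by TMM (factors between 0.9134 and 1.072) and compared with the quasi-likelihood test of edgeR 4.0.16 in R 4.3.3, with the group as the only term and all 6 libraries in 1 model. Benjamini-Hochberg adjustment ran over 12259 genes, and adjusted p-values under 0.05 were called. Intervals of log2 differences are at 95% and unadjusted. CPM use TMM-scaled totals, and RPKM divide CPM by the merged exon length. The libraries of a group differed by more than counting noise (chi-square per degree of freedom 9.06 to 12.6), and no factor shared identical counts with another gene.

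The 10 factors and the gene lists were chosen with earlier results of these data known. Every factor is described in every comparison. Of each list, up to 3 called genes per comparison and direction with the smallest adjusted p could be named, together with relatives of the factors and markers of cell types. The likeness search used the 6 transcription factor lists. Promoters are those of RefSeq on GRCm38.p6, searched over 250 bases before each start on both strands. Alternatives were DESeq2 1.42.0, other scalings, filters and thresholds, fits on the compared groups, a block for the replicate number and fits without each library in turn. A gene of the lists is not reported here by name.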

Additional observations from a re-analysis of the deposited data

Results flagged for a closer look

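The change from naive mice differed between 1-week and 3-week LL2 mice for 6 of the 10 factors, by the edgeR test of the difference itself, which equals the comparison of 3 weeks with 1 week because the naive libraries are shared. On the log2 scale the 3-week change minus the 1-week change was -1.20 for Cebpa, -1.23 for Cebpe, -0.92 for Gfi1, 1.12 for Cebpb, 0.83 for Klf2 and 0.48 for Spi1. The difference for Spi1 did not pass with scaling by library size or without any 1 of 3 libraries, as given in the report. For the other 5 it passed in all 13 refits.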

How the results depend on the processing

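Of 420 results for single factors under other settings, 388 kept their direction and side of the threshold, 14 lost a call, 2 gained one and 16 changed sign. No called difference changed sign, and 9 of the 13 calls were kept in all 13 refits, namely Cebpb, Cebpe, Gfi1 and Klf2 at 3 weeks against either group and Cebpa at 3 weeks against 1 week. The calls lost with single libraries left out are given in the report, and with a threshold of 0.01 those of Irf8 (both times) and of Spi1 were lost. With that threshold 274, 1339 and 1481 genes passed at 1 week against naive, 3 weeks against naive and 3 weeks against 1 week, and 0 of the factors at 1 week. With a fold above 5 as well, 92, 208 and 196 genes passed and 0, 0 and 0 factors, the largest factor difference being 1.53 on the log2 scale. Without a filter on low counts, 1537 genes and 2 factors (Irf8 and Cebpb) passed at 1 week. DESeq2 called 361 genes higher and 500 lower at 1 week, in place of 518 and 461.

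Leaving out each library in turn, where the single library left in a group was assumed to vary like the others, gave 147 to 1145 genes and 0 to 1 factors at 1 week, 1362 to 2392 genes at 3 weeks against naive and 1502 to 2725 genes between the times. The 1-week count was 147 without the first naive library, 343 without the first and 277 without the second 1-week library. The 3-week count against naive was lowest without the first naive library, and that between the times without the second (1502) and the first (1694) 1-week library.

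Signs changed only for differences that were not called. At 1 week against naive, Klf2 was -0.01 with DESeq2's size factors and -0.01 with DESeq2, Gfi1 0.05 with scaling by library size and Cebpd 0.00 with DESeq2. With library size, Bcl6 was -0.08 at 3 weeks against naive and Irf8 -0.09 between the times. Over the libraries left out, Cebpd ranged from -0.11 to 0.16, Gfi1 from -0.08 to 0.07 and Klf2 from -0.14 to 0.17 at 1 week, Cebpd from -0.17 to 0.14 at 3 weeks against naive, and Cebpd from -0.11 to 0.07 and Irf8 from -0.05 to 0.28 between the times. The causes were not tested. Of 390 list medians, 53 moved by more than their spread between libraries, 36 of them with a library left out and 15 with scaling by library size, and 12 changed sign.

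The labels give replicate numbers but do not say whether same-numbered libraries were paired. With 2 libraries in each group, the values below cannot decide this. Deviations of same-numbered libraries had correlations of 0.01, 0.04 and 0.04, and with the replicate number as a block 521 and 438, 1445 and 1114, and 1532 and 1177 genes were called higher and lower, with 1, 6 and 6 factors called. Factors read at few counts, such as Cebpa with 51 to 160, are measured least precisely.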

Other observations

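Motifs beyond those in capitals were counted in the same 250 bases of all 7 factors with a promoter. Where RefSeq has a pair of starts for a factor, each was searched. Before Gfi1, a C/EBP motif (TTGCNNAA, in 9.57% of promoters) lay 143 bases upstream of the outer start, and a PU.1 motif (AGGAAG, in 29.5%) 108 bases upstream of the inner one. Before Runx1, a PU.1 motif lay 124 bases upstream of the outer start. Before Bcl6, the STAT and BCL6 motif had 3 matches at the inner start, 168, 122 and 88 bases upstream, and 1 match at the outer start, 118 bases upstream, beside 7.01% of promoters with at least 1. A PU.1 motif lay 190 bases upstream of the outer start of Bcl6 and another 169 bases upstream of the inner one, and a GFI1 motif lay 226 bases upstream of the inner start of Irf8. The motif GGGCGGG of KLF and SP factors, in 23.4% of promoters, had 3 matches before Cebpb, 2 before Klf2 and 1 before Irf8. The cyclic AMP core had 1 match before Klf2, 241 bases upstream, and 2 before the outer start of Bcl6, 72 and 56 bases upstream, beside the 3 before Cebpb. No match to any of the 8 motifs lay in the window before Cebpa. These matches are letters in a window and say nothing of binding.

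The summed level of the markers of basophils and related cells was highest at 1 week. Of the 6 tested markers of basophils, eosinophils and mast cells, 4 were higher at 1 week than in naive mice and 5 were lower at 3 weeks than at 1 week. Prss34, a protease gene of basophils, was read at 15.2 and 14.3 CPM in naive mice, 39.8 and 44.4 CPM in 1-week LL2 mice and 2.09 and 5.61 CPM in 3-week LL2 mice, and Mcpt8, another, at 4.51 and 6.05, 15.5 and 14.4, and 1.01 and 3.38 CPM. Il5ra, also among the 6, was instead highest at 3 weeks, with 0.87 and 1.31, 1.13 and 1.94, and 2.01 and 2.15 CPM.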
